A study of Mus musculus with 46 samples.

Results

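The genes described here are 9 members of the cytochrome P450 family 4 in mouse liver, Cyp4a10, Cyp4a14, Cyp4a31, Cyp4a32, Cyp4a12a, Cyp4a12b, Cyp4f14, Cyp4f15 and Cyp4v3. They were taken by symbol from the 25494 rows of the gene count table, and all 9 were found there. In mm9 coordinates, Cyp4a12a (114971651 to 115005420), Cyp4a12b (115084229 to 115111639), Cyp4a14 (115158805 to 115168746, minus strand), Cyp4a10 (115190892 to 115206254), Cyp4a31 (115236254 to 115251620) and Cyp4a32 (115273543 to 115294971) form a cluster on chromosome 4. Cyp4f15 (32822604 to 32840294) and Cyp4f14 (33042015 to 33054287, minus strand) lie on chromosome 17 and Cyp4v3 (46391156 to 46418550, minus strand) on chromosome 8. The livers came from male C57BL/6 mice that arrived at 5 weeks of age and were fed for 20 weeks either a lipid-rich diet (LD, labelled high fat diet) with 60% of its energy from lipid, 20% from carbohydrate and 20% from protein, or a carbohydrate-rich diet (CD, labelled low fat diet) with 10%, 70% and 20%. No mutant allele or drug was part of either group, and there was no chow-fed group, so each difference is between these diets only. RNA-seq was done on 5 LD and 5 CD samples, ChIP-seq for the active-chromatin mark H3K27ac on 3 and 3, ChIP-seq for the liver transcription factors Hnf4a and C/EBPa on 2 and 2 each, and promoter capture Hi-C and Hi-C on 2 and 2 each.

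Cyp4 enzymes sit in the membrane of the endoplasmic reticulum and add a hydroxyl group to the far (omega) end of fatty acids and of eicosanoids, the signalling lipids made from arachidonic acid. Alcohol and aldehyde dehydrogenases then oxidise the product to a dicarboxylic acid, which is shortened in peroxisomes. In mouse liver Cyp4a10 and Cyp4a14 are classical targets of PPARa, the nuclear receptor for fatty acids, whereas Cyp4a12a is a male-predominant gene under androgen and growth hormone control.

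The RNA libraries held 31707963 to 39012699 counts in genes. Levels are given as CPM, the counts of a gene scaled to a common library size with TMM factors, fold changes are LD over CD on the log2 scale with their standard error (SE), and adjusted p-values come from the quasi-likelihood test of edgeR with Benjamini-Hochberg adjustment over the 13494 genes tested. A gene was called changed at an adjusted p below 0.05 and a fold change above 1.2. Per the study, the RNA libraries come from 5 animals per diet, so the spread is that between animals. In whole liver, fewer cells of a type and less RNA per cell cannot be told apart. The summed level of 7 hepatocyte markers ran from 95885 to 113000 CPM on LD and from 103270 to 115410 on CD, with 2 of the 7 lower and 5 not called. The 8 stellate cell markers summed to 780 to 1123 CPM on LD and 676 to 810 on CD, with 4 higher. The 10 macrophage markers summed to 505 to 1353 CPM on LD and 407 to 820 on CD, with 1 higher. Of the 5 adipocyte markers, Lep and Plin1 were at 0 in every library and only Cidec, a lipid droplet protein, was tested and rose, from 2.17 to 94.4 mean CPM. Of the 9 lymphocyte markers 2 were higher and 1 lower, with sums of 31.7 to 73.2 CPM on LD and 25.4 to 33.2 on CD. The part of these cell types in the results on the Cyp4 genes was not tested.

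Of the 9 Cyp4 genes, 3 were lower on LD and none was called higher by edgeR, while 24.9% of all genes tested were called, 13.8% higher and 11.1% lower. The 3 were Cyp4a12a, Cyp4a12b and Cyp4f14, and they were also the only members whose LD and CD samples did not overlap, which was so for 18.5% of all genes tested. At an edgeR p below 0.05 before adjustment, and with the same minimum fold change, only Cyp4a14 would be added, as higher. The levels by sample show the 3 genes with separate diets and the wide spread of Cyp4a14 on CD.

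**Figure D1:**
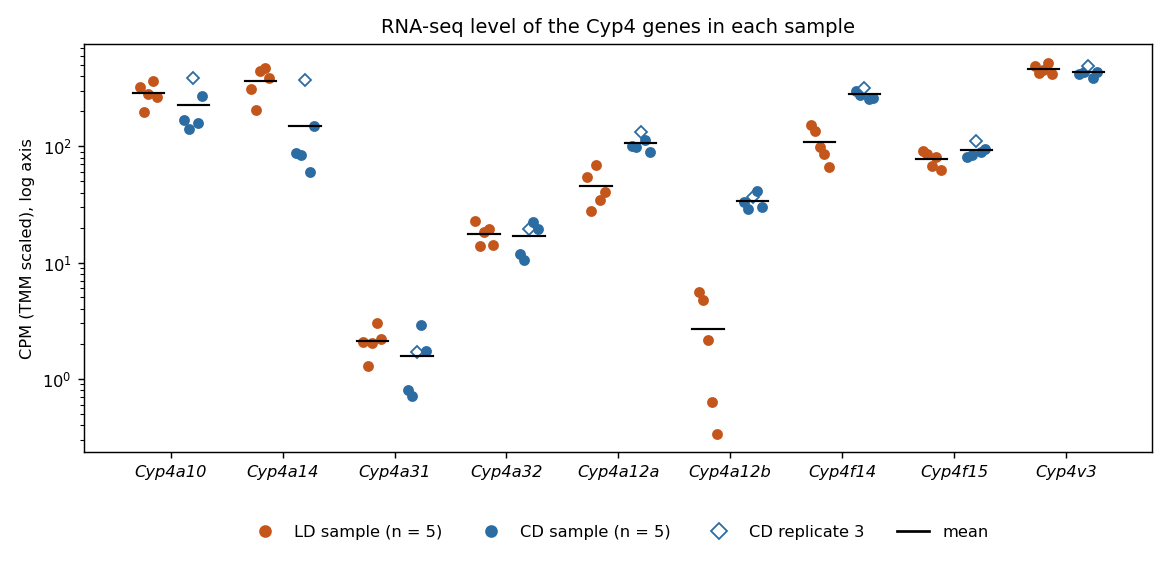
CPM of each gene (log axis) in the 5 LD and 5 CD samples, with the mean as a bar and CD replicate 3 as an open diamond. Cyp4a12a, Cyp4a12b and Cyp4f14 lie lower in every LD sample than in every CD sample, and CD replicate 3 lies among the LD samples for Cyp4a14, at 371 CPM.

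Cyp4a14, an omega-hydroxylase of medium and long-chain fatty acids, measured 314, 206, 440, 468 and 388 CPM in the 5 LD samples. In the CD samples it measured 87.9, 84.0, 371, 60.2 and 149 CPM. Every LD sample was above 4 of the 5 CD samples, and CD replicate 3 lay inside the LD range, so the groups overlapped. The mean was 363 ± 106 CPM on LD and 150 ± 128 on CD (SD, n = 5 each). The log2 fold change was 1.27 (SE 0.519), or 2.41-fold, with an adjusted p of 0.105 by edgeR, so Cyp4a14 was not called. Without CD replicate 3 the log2 fold change was 1.93 and the adjusted p 0.00393 by edgeR, and Cyp4a14 was called higher. It was also called by the edgeR fit without robust estimation of the dispersion (adjusted p = 0.0389) and by limma on log2(TPM + 1) (adjusted p = 0.0367), but not by DESeq2 (adjusted p = 0.0773). The call on Cyp4a14 thus turns on 1 library and on the fit.

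The promoter of Cyp4a14 is shown because, of the 9 promoters, it alone held the nuclear receptor half-site AGGTCA, the unit from which the sites of receptors such as PPARa and Hnf4a are built. The 250 bases before the start, mm9 chr4:115168747-115168996 on the minus strand, were read from the NCBIM37 reference genome. Capitals mark, 5′ to 3′, the STAT5 word TTCNNNGAA, the C/EBP word TTNNGNAA on the opposite strand, the half-site AGGTCA and a further opposite-strand C/EBP word.
Cyp4a14 promoter: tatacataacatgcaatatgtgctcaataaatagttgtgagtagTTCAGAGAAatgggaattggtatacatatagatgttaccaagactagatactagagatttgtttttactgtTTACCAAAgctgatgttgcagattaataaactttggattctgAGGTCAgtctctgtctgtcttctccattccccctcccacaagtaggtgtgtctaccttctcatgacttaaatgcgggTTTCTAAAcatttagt
The half-site starts 93 bases before the transcription start. Within 250 bases before and 50 after the start, AGGTCA was found on either strand in 14.4% of 24655 mouse promoters, TTNNGNAA in 37.9% and TTCNNNGAA in 8.03%. The direct repeat of 2 such half-sites with 1 base between, known as DR1 (0.385% of promoters), and the Hnf4a core CAAAGTCCA (0.458%) were in none of the 9 windows. A match of letters is a description and not evidence of binding.

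Cyp4a10, the neighbour of Cyp4a14 with the same activity, measured 323, 198, 284, 366 and 266 CPM on LD. On CD it measured 169, 141, 385, 158 and 272 CPM. CD replicate 3 was the highest of all 10 samples and CD replicate 5 lay inside the LD range, so the groups overlapped. The log2 fold change was 0.35 (SE 0.291) with an adjusted p of 0.405 by edgeR. Without CD replicate 3 it was 0.64 (adjusted p = 0.0604 by edgeR), and with any other sample left out 0.23 to 0.46. The number of Cyp4a14 counts per Cyp4a10 count lay between 0.970 and 1.55 on LD and between 0.380 and 0.964 on CD. The lowest LD ratio (replicate 1) and the highest CD ratio (replicate 3) nearly met.

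Cyp4a31 and Cyp4a32 lie beside Cyp4a10 on chromosome 4 and resemble it. Cyp4a31 was weakly expressed, at 2.06, 1.28, 2.02, 3.0 and 2.21 CPM on LD and 0.797, 0.705, 1.7, 2.92 and 1.72 on CD. Its log2 fold change was 0.43 (SE 0.351), the adjusted p by edgeR was 0.39, and the groups overlapped. Without CD replicate 4, its highest CD sample, it was 0.78 (adjusted p = 0.0941 by edgeR), and with any other sample left out 0.24 (without CD replicate 2) to 0.57. Cyp4a32 measured 22.7, 13.8, 18.3, 19.5 and 14.2 CPM on LD and 11.8, 10.6, 19.6, 22.5 and 19.6 on CD. Its log2 fold change of 0.08 (SE 0.221, adjusted p = 0.832 by edgeR) had no stable sign, since it turned slightly negative when LD replicate 1, CD replicate 1 or CD replicate 2 was left out. CD replicates 1 and 2 were the lowest of all samples for both genes. Of the 50-base words of the transcripts, 46.8% in Cyp4a32, 30.5% in Cyp4a10 and 17.6% in Cyp4a31 occur in other genes, most often in 1 of these 3. Summed to 1 row, the 3 genes had a log2 fold change of 0.34 (SE 0.279, adjusted p = 0.407 by edgeR), and the groups overlapped. With 1 sample left out this sum had a log2 fold change of 0.21 to 0.60.

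Cyp4a12a, the main male-type enzyme that makes 20-HETE, a vasoactive eicosanoid, from arachidonic acid, measured 53.9, 27.9, 69.0, 34.7 and 40.5 CPM on LD. On CD it measured 100.5, 97.6, 133.9, 114.3 and 89.7 CPM. The highest LD sample was below the lowest CD sample. The log2 fold change was -1.25 (SE 0.23, adjusted p = 0.00325 by edgeR), so the level was 2.37-fold higher on CD. Its near copy Cyp4a12b had the larger fold change. It measured 5.55, 4.78, 2.17, 0.637 and 0.335 CPM on LD, where replicates 4 and 5 held only 21 and 12 counts, and 33.1, 28.9, 36.3, 41.2 and 29.8 CPM on CD. The LD samples spread over more than a factor of 10 while the CD samples stayed close together, and the groups did not overlap. The log2 fold change was -3.63 (SE 0.59, adjusted p = 0.00261 by edgeR), or 12.4-fold higher on CD.

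Because Cyp4a12a and Cyp4a12b share sequence, their counts were also set against each other. Cyp4a12b took 9.34%, 14.6%, 3.05%, 1.80% and 0.822% of the counts of both genes in the LD samples. It took 24.8%, 22.8%, 21.3%, 26.5% and 24.9% in the CD samples. The CD shares lay in a narrow band above all LD shares, so the 2 genes differed between the diets by unequal factors. Of the 50-base words of their transcripts, 48.9% of those in Cyp4a12a and 49.4% of those in Cyp4a12b occur in the other gene, and a read pair that lies wholly in shared stretches cannot be placed on 1 copy. Summed to 1 row, the pair fell by 1.56 on the log2 scale (SE 0.217, adjusted p = 0.000654 by edgeR), and the groups did not overlap.

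The 2 promoters are shown to let the near identity be seen. They were read from the NCBIM37 genome on the plus strand, at mm9 chr4:114971401-114971650 for Cyp4a12a and chr4:115083979-115084228 for Cyp4a12b, each the 250 bases before the start. Capitals mark matches to the C/EBP word TTNNGNAA on either strand.
Cyp4a12a promoter: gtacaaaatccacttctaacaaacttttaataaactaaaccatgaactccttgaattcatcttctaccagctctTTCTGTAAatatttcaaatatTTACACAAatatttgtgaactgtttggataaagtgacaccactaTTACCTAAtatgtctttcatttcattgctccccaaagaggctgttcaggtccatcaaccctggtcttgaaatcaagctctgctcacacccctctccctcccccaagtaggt
Cyp4a12b promoter: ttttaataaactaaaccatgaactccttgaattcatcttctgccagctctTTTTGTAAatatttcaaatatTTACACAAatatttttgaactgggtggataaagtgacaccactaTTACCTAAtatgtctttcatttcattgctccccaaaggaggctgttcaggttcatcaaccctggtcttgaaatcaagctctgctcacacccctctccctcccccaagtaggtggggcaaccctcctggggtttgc
In a global alignment that took in 50 bases past each start, 276 bases were paired and 6 of them differed. Over all 324 columns, unpaired ones included, the identity was 83.3%. The 3 C/EBP words start 176, 155 and 111 bases before the start in Cyp4a12a and 200, 179 and 135 bases before it in Cyp4a12b. Cyp4a12a and Cyp4a12b also each held a match to the STAT5 word TTCNNNGAA past the start. The motifs searched did not tell the 2 promoters apart. In the same kind of alignment Cyp4a10 and Cyp4a32 had 290 paired bases, of which 22 differed, and an identity of 86.5% over all 310 columns.

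**Figure D2:**
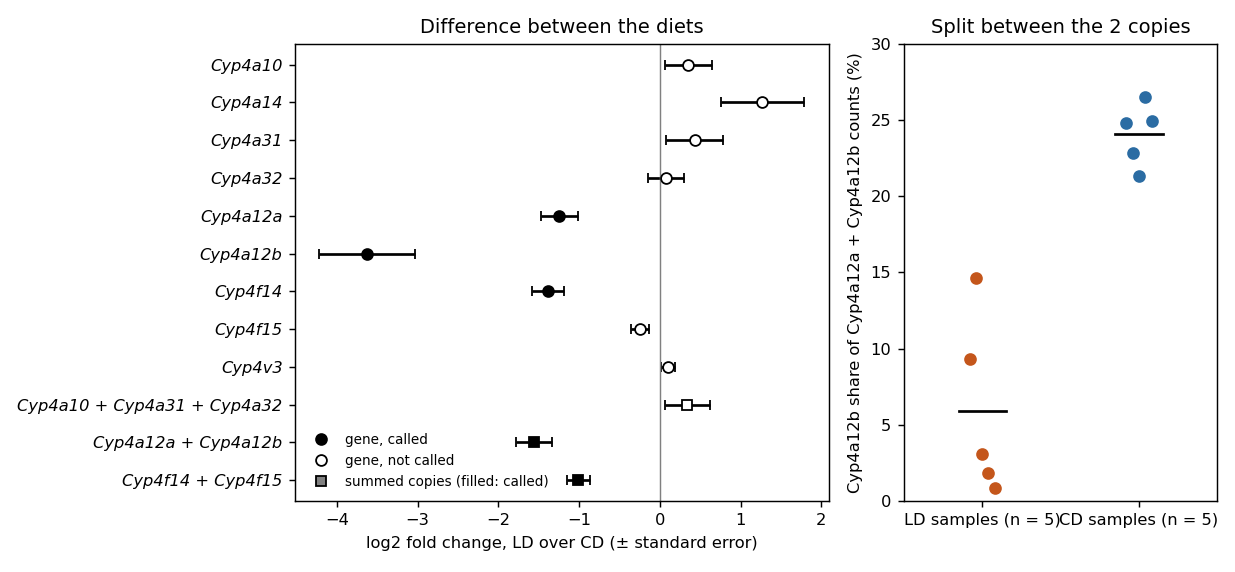
Left, log2 fold change (LD over CD) with its standard error for the 9 genes and for 3 sums of similar copies, filled where called. Right, the share of Cyp4a12b in the counts of Cyp4a12a and Cyp4a12b (%) by sample with the mean as a bar, which lies between 0.822% and 14.6% on LD and between 21.3% and 26.5% on CD.

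Cyp4f14, an omega-hydroxylase that inactivates the inflammatory mediator leukotriene B4, had the smallest adjusted p of the 9 genes. It measured 152, 137, 98.3, 86.1 and 66.9 CPM on LD and 298, 278, 317, 254 and 260 CPM on CD. The highest LD sample was far below the lowest CD sample. The log2 fold change was -1.38 (SE 0.197, adjusted p = 0.000589 by edgeR), or 2.61-fold higher on CD. Cyp4f15, a related enzyme in the next chromatin domain, measured 91.6, 86.3, 67.3, 81.5 and 62.2 CPM on LD and 81.5, 84.9, 110, 89.1 and 94.5 CPM on CD. Here the groups overlapped, and the log2 fold change of -0.24 (SE 0.112) had an adjusted p of 0.126 by edgeR. The 2 genes share few words, 2.75% of those in Cyp4f14 and 2.12% of those in Cyp4f15 occurring in any other gene, and their sum fell by 1.01 on the log2 scale (adjusted p = 0.00048 by edgeR).

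The promoter of Cyp4f14 is shown because it alone held the stricter C/EBP word TTGCNNAA, found in 10.1% of mouse promoters. The 250 bases before the start in the count table, mm9 chr17:33054288-33054537 on the minus strand, were read from the NCBIM37 genome, and capitals mark the word, which is also a match to TTNNGNAA. The Gencode annotation places the start 264 bases further into the gene.
Cyp4f14 promoter: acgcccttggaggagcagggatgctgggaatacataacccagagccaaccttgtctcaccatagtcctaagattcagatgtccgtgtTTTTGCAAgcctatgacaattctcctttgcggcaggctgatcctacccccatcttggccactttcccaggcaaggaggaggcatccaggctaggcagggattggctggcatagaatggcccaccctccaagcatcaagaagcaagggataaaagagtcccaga

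Cyp4v3, the mouse counterpart of CYP4V2, an omega-hydroxylase whose loss in people causes a crystalline retinal dystrophy, measured 494, 426, 455, 525 and 417 CPM on LD. On CD it measured 415, 436, 487, 385 and 435 CPM. The groups overlapped through most of their range. The log2 fold change was 0.10 (SE 0.0852) with an adjusted p of 0.404 by edgeR, and with 1 sample left out it was 0.05 to 0.15. Of its 50-base transcript words, 9.1% occur in Klkb1, the plasma kallikrein gene that overlaps its far end.

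Levels of different genes were compared only per length, in TPM, the deposited unit that divides counts by transcript length and library size. On LD the mean TPM ran from Cyp4v3 (299 ± 22.3) through Cyp4a14 (276 ± 80.0), Cyp4a10 (261 ± 53.5), Cyp4f14 (84.7 ± 26.8), Cyp4f15 (68.9 ± 9.51), Cyp4a12a (35.4 ± 12.9), Cyp4a32 (17.5 ± 3.44) and Cyp4a12b (2.11 ± 1.86) to Cyp4a31 (1.60 ± 0.446; SD, n = 5). On CD the order was Cyp4v3 (265 ± 25.8), Cyp4f14 (210 ± 18.6), Cyp4a10 (194 ± 90.4), Cyp4a14 (109 ± 93.3), Cyp4a12a (79.6 ± 13.9), Cyp4f15 (77.6 ± 10.7), Cyp4a12b (25.4 ± 4.07), Cyp4a32 (15.8 ± 5.19) and Cyp4a31 (1.13 ± 0.662). By the larger SD of each pair of neighbours in this order, the first 3 on LD did not differ beyond their spread, nor did Cyp4f14 and Cyp4f15 or Cyp4a12b and Cyp4a31. On CD this held for Cyp4f14 and Cyp4a10, Cyp4a10 and Cyp4a14, Cyp4a14 and Cyp4a12a, and Cyp4a12a and Cyp4f15.

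Within each diet some members varied together. After each diet's mean log2 CPM was subtracted, the 3 highest of the 36 pairwise correlations over the 10 samples were Cyp4a12b with Cyp4f14 (r = 0.931, rho = 0.745), Cyp4a10 with Cyp4a14 (r = 0.916, rho = 0.867) and Cyp4a31 with Cyp4a32 (r = 0.863, rho = 0.806). Without the 2 samples farthest from the median of the first gene, r was 0.801, 0.854 and 0.758. These pairs were picked as the highest of 36, so the values are a description with no test. Genes counted in 1 library share its depth and composition, and Cyp4a31 and Cyp4a32 share sequence. Across all genes, those whose deviations were most like Cyp4a14 were Slc39a9 (r = 0.97), Tmem175, Mettl15, Prkrir and Lonp2. Those most like Cyp4f14 were Serpina3k (r = 0.97), Exosc5, Nnmt, Rmdn2 and Serpina1c. Cyp4a12a was most like Cyp2c67 (r = 0.90), Nrbf2, 4933439C10Rik, Prss53 and Etl4. Cyp4v3 was most like Spns2 (r = 0.94), Azgp1, Lmf1, Pgpep1 and Kpna6. Each list gives the 5 highest of 13493 genes.

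Of 12 other Cyp4 genes listed, 11 were in the table and 6 were tested, of which 2 rose on LD, 1 fell and 3 were not called. The median log2 fold change of the 6 was 0.53, beside 0.00 over all genes tested. Cyp4f18, an enzyme of myeloid cells, went from 0.743 to 1.73 mean CPM (log2 fold change 1.23, adjusted p = 0.00327 by edgeR), Cyp4f16 from 1.56 to 2.82 (0.86) and Cyp4f13 from 48.5 to 35.2 (-0.46, adjusted p = 0.000425 by edgeR).

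The steps around and after omega-hydroxylation were taken from lists chosen for their role. Of 10 tested genes that donate electrons or oxidise the hydroxylated product, 3 rose and none fell, with a median log2 fold change of 0.03. The share called, 30%, is near the 24.9% of all genes tested, and was the same in the lists of sex-bias regulators and arachidonic acid genes described below. The genes that rose were Aldh3a2, the fatty aldehyde dehydrogenase (470 CPM on CD, 1236 on LD, log2 fold change 1.40), Aldh1a1 (0.84) and Cyb5a, an electron donor of P450 enzymes (0.28). Without CD replicate 3, or by DESeq2, 1 gene of this list was also called lower. Of the 14 genes of peroxisomal import and oxidation, 10 rose and none fell, with a median log2 fold change of 0.49. The largest were Crat, a carnitine acyltransferase (log2 fold change 1.2, adjusted p = 0.000285 by edgeR), Acaa1b, a peroxisomal thiolase (0.97, 0.0014), and Abcd2, a peroxisomal fatty acid transporter (0.87, 0.000124). Abcd2 is also in the list of female-biased genes below.

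Genes known to share a regulator with some of the Cyp4 genes were described in the same way. Of 24 tested PPARa targets outside the Cyp4 family, 13 rose and none fell, with a median log2 fold change of 0.43. The largest were Cd36, a fatty acid transporter (1.89), Acot2, a mitochondrial thioesterase (1.80), and Vnn1, a pantetheinase (1.65). Without CD replicate 3 the count was 15. Among 13 genes for PPARa and its partners 2 rose and 3 fell. They included Pparg (1.41), Ppargc1a (-0.73) and Ppargc1b (-0.62). Of 14 tested male-biased liver genes 9 fell and none rose, with a median of -0.99. Of the called genes the largest falls were those of Hsd3b5 (-5.34), Ugt2b38 (-2.98) and Elovl3 (-1.36). Of 11 tested female-biased genes 5 rose and none fell, led by Cyp2b13 (7.82), Cyp2b9 (7.82) and Cyp2a4 (4.94). Cyp2b13 averaged 3.46 CPM on LD and only 0.0112 on CD, and its fitted fold change depends on the prior count. Among 10 regulators of sex-biased genes, Igf1 (-0.66) and Ghr, the growth hormone receptor (-0.32), fell and Stat5a rose (0.49). By DESeq2, the number lower in this list was 5, and in the female-biased list 8 were higher and 1 lower.

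Of the 10 tested genes that handle arachidonic acid and its products, the substrates of Cyp4a12a and Cyp4f14, 2 rose and 1 fell, with a median log2 fold change of 0.01. These were Ephx1, microsomal epoxide hydrolase (1.23), Cyp2c44, an epoxygenase (-1.09), and Pla2g6, a phospholipase (0.62). CD replicate 3, the high sample for Cyp4a14, was the highest CD sample in 21.3% of all genes tested. Over the 9 lists this share ran from 15.4% (PPARa and its partners) to 63.6% (female-biased genes), with 57.1% of the peroxisomal genes and 41.7% of the PPARa targets. The part of this library in the result on Cyp4a14 is given by the value without it above.

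H3K27ac was compared as the share of each gene with 20 kb on either side that was covered by peaks, since the peak lists hold no reads. The largest difference among the members was at Cyp4f14. Its window was covered to 30.8%, 31.5% and 25.6% in the 3 LD samples and to 47.6%, 40.3% and 45.7% in the 3 CD samples. All LD samples lay below all CD samples, and the difference of -15.2 percentage points had an exact two-sided permutation p of 0.1, the smallest that 3 against 3 can give. Lower coverage in every LD sample was found for 5.34% of 18944 genes with a peak, higher coverage for 21% and either for 26.3%. In the median gene with a peak, coverage was 0.762 percentage points higher on LD. The peak lists of the whole genome also covered more on LD, 150 to 160 megabases against 140 to 145.

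**Figure D3:**
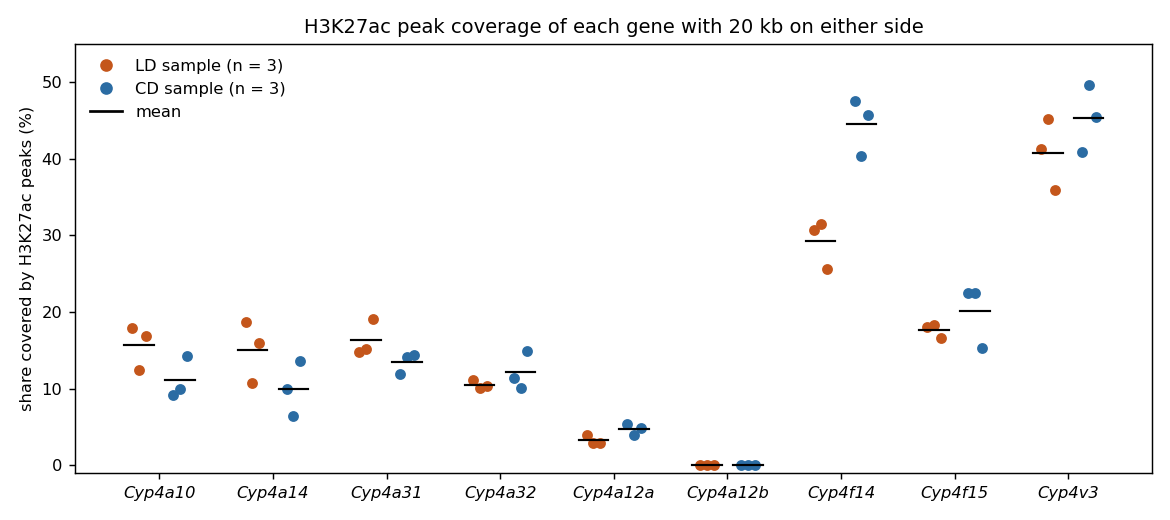
Share (%) of each gene with 20 kb on either side covered by H3K27ac peaks in the 3 LD and 3 CD samples, with the mean as a bar. Cyp4f14 has 25.6% to 31.5% on LD and 40.3% to 47.6% on CD, and Cyp4a12b has no peak in any sample.

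Of the other members, Cyp4a31 had higher coverage in every LD sample (14.8%, 15.2% and 19.1% against 11.9%, 14.1% and 14.4%, exact two-sided permutation p = 0.1). The Cyp4a31 difference of 2.9 percentage points became 1.52 to 3.67 with 1 sample left out. Fewer members separated with windows of 10 kb or of 50 kb, as given below. In the 20 kb windows the remaining 7 members overlapped. Cyp4a10 had a mean of 15.7% on LD and 11.2% on CD. Cyp4a14 had 15.1% and 10.01%. Both had overlapping samples (exact two-sided permutation p = 0.2 each). Cyp4a12a was covered to 4.0%, 2.91% and 2.91% on LD and 5.35%, 4.0% and 4.81% on CD, touching at 4.0%. Cyp4a32 (10.5% on LD, 12.1% on CD), Cyp4f15 (17.7%, 20.1%) and Cyp4v3 (40.8%, 45.4%) overlapped as well. Cyp4a12b had 0% in all 6 samples. When each value was divided by the share of the genome covered in its sample, Cyp4f14 (4.54 to 5.24 on LD, 7.36 to 8.92 on CD), Cyp4a12a (0.482 to 0.681 against 0.730 to 1.0) and Cyp4v3 (6.36 to 7.48 against 7.67 to 9.06) were lower in every LD sample, as were 14.9% of genes with a peak, while 13.2% were higher. Cyp4a31 then overlapped (2.51 to 3.39 on LD, 2.23 to 2.75 on CD), so the separation of Cyp4a31, Cyp4a12a and Cyp4v3 depends on this scaling and that of Cyp4f14 does not. The reads were kept only where they mapped uniquely. Words of 50 bases found elsewhere in the genome made up 28.7% of the Cyp4a12b window, 48.8% of that of Cyp4a12a and 4.17% of that of Cyp4f14. The ChIP-seq reads were paired and shorter than these words. Their part in the coverage was not tested. With 1 sample left out, 2 to 5 members had samples that did not overlap, with 4 without LD replicate 2 or CD replicate 2 and 5 without CD replicate 3.

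By locus, the windows held 27 H3K27ac loci that had a peak in 2 or more samples. None was found on LD only and 2 on CD only, in all 3 samples of the diet and none of the other, while 0.757% of all loci were found on CD only, 3.13% on LD only, and 3.89% on 1 diet in all. Both lay by Cyp4f14. The first, mm9 chr17:33047401-33050400, has its centre in an intron 5387 bases inside the gene. Its covered length on CD was 2200, 1000 and 1600 bases. It lies beside the locus over the start, chr17:33050801-33058000, which had a peak in all 3 samples of each diet. With near peaks merged, only 1 locus of 1 diet was left, as given below. The second, chr17:33033001-33034800, lies between genes past the end of Cyp4f14, with 1800, 1200 and 1400 bases covered on CD. In 6 of the 27 loci the covered length was lower in every LD sample and in 1 it was higher, beside 16.6% of all loci with either. Of these 6, 5 were by Cyp4f14, which has 6 loci in all. They included the one over its start, with 6000, 5000 and 4800 bases on LD and 6400, 6400 and 7000 on CD. Another of the 5, chr17:33070201-33075200, has its centre in an intron of Cyp4f13, a gene also called lower on LD. The window of Cyp4f14 thus takes in part of Cyp4f13, and its coverage is not that of Cyp4f14 alone. The sixth was by Cyp4v3, over Klkb1, with 16200, 17600 and 13400 bases on LD and 18600 in each CD sample. The locus higher on LD covered the start of Cyp4a31, with 3000, 2800 and 3400 bases on LD and 1000, 2000 and 2200 on CD. The locus over the start of Cyp4a14 covered 5200, 3600 and 4200 bases on LD and 3000, 1800 and 4000 on CD. The one over the start of Cyp4a10 covered 9200, 5800 and 7600 on LD and 4600, 4000 and 7400 on CD. In both, CD replicate 3 was the highest CD sample and reached into the LD range. No label says whether these samples come from the mice of the RNA libraries.

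**Figure D4:**
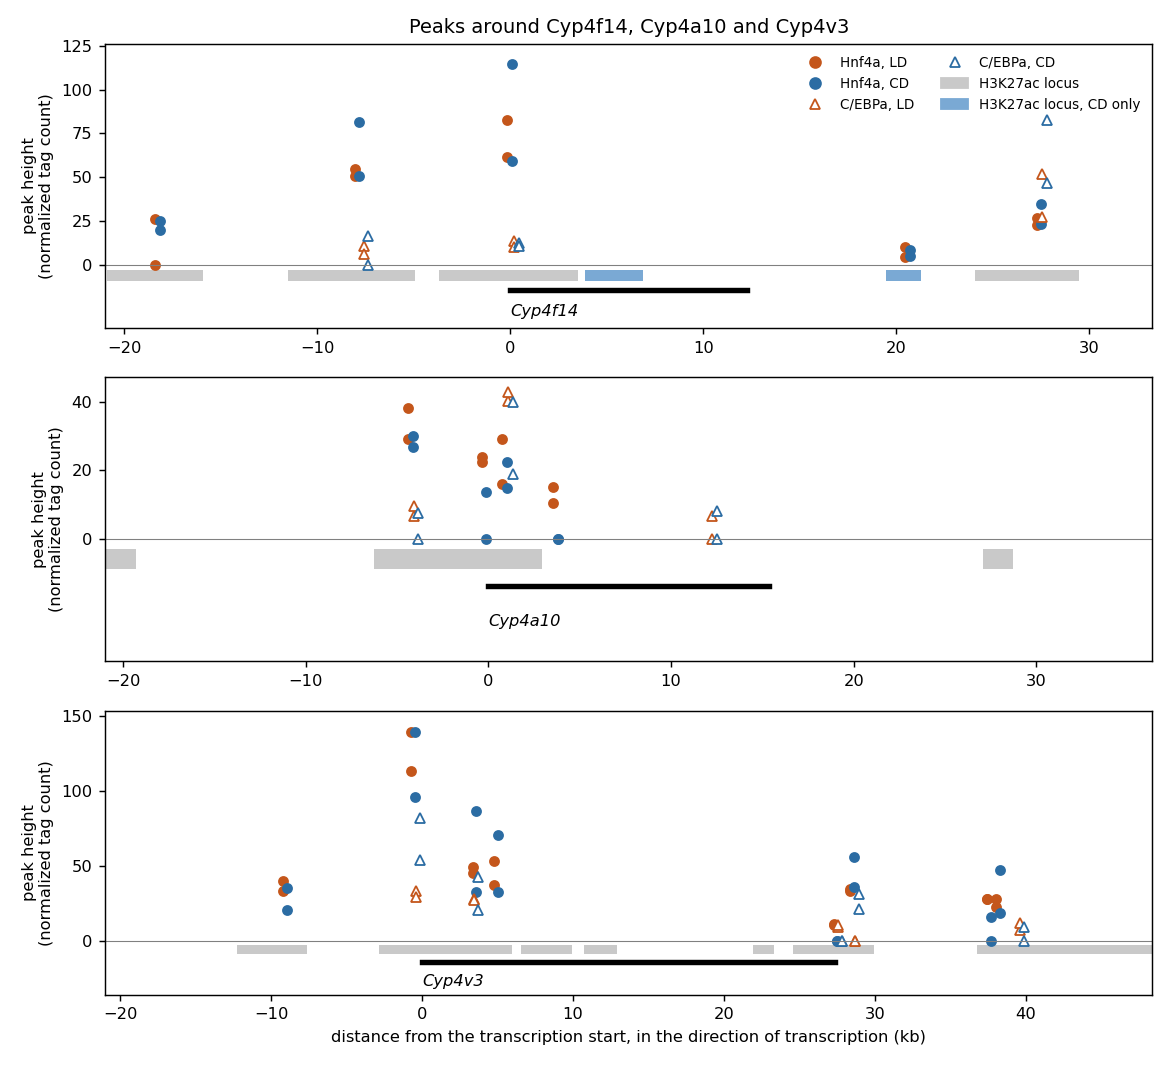
Peak heights (normalized tag count) of Hnf4a (filled circles) and C/EBPa (open triangles) in each LD and CD sample and H3K27ac loci (bars below 0, blue where found on CD only) by distance from the start of Cyp4f14, Cyp4a10 and Cyp4v3 in kb. The black line is the gene, a height of 0 stands for no called peak, and both loci found on CD only lie by Cyp4f14.

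Hnf4a, a nuclear receptor that maintains gene expression of hepatocytes, had 34 loci near the members that were called in 2 or more of the 4 samples. A peak height is the tag count of a peak as normalized by the authors, and a locus without a called peak in a sample was set to 0. Heights were higher in both LD samples at 7 loci, lower at 2 and overlapping at 25, so 9 of 34 separated, beside 28.7% of all loci (22.2% higher, 6.49% lower). The exact permutation p of 2 against 2 cannot go below 0.33, so no locus was tested. Of the 34 loci, 3 were found on LD only and 1 on CD only, in both samples of the diet and neither of the other. Over all Hnf4a loci, 11.4% were found on 1 diet only, so the members lie near that share. Median heights were taken over the loci called in all 4 samples. Those of the 2 CD samples (21.5 and 42.8) lay on either side of those of the LD samples (35.8 and 33.5). With heights divided by those medians, 17 loci separated, 10 of them lower on LD, beside 50.7% of all loci (28.1% higher, 22.6% lower). The scaling changed which loci separated. It could not reverse a separated locus, since the LD medians lay between the 2 CD medians.

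At the start of Cyp4a10 the Hnf4a heights were 24 and 22.5 on LD, against 0 and 13.8 on CD. Farther inside this gene, 3819 bases from the start and in an intron, a locus was found on LD only, with heights of 15.2 and 10.5. Both loci separated with scaled heights too, but scaling could not end this. A height of 0 stays 0, and the 13.8 came from the CD sample with the highest median. The second is shown because it was the only one of the 34 that held the Hnf4a core CAAAGTCCA, which 5.25% of all Hnf4a loci held. It lies at mm9 chr4:115194582-115194842 and is given on the plus strand from the NCBIM37 genome, with a C/EBP word TTNNGNAA and then the Hnf4a core in capitals.
Cyp4a10 intronic Hnf4a locus: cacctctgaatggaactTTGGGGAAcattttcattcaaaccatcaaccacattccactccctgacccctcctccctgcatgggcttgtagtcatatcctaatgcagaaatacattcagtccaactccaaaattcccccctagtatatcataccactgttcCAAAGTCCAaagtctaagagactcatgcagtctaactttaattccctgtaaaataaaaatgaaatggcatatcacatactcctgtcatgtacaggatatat

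At Cyp4f14 the Hnf4a locus over the start had heights of 82.5 and 61.8 on LD and 59 and 114.5 on CD, and the groups overlapped. The locus 7786 bases upstream had 54.5 and 50.5 on LD and 50.8 and 81.5 on CD, and overlapped as well. With scaled heights both were lower in the 2 LD samples. The highest of the 34 Hnf4a loci was 444 bases before the start of Cyp4v3, at 139.5 and 113 on LD and 95.8 and 139 on CD, above 97.7% of all Hnf4a loci by mean height, and here too the groups overlapped. Near Cyp4a12a, the gene that fell, 1 locus 9682 bases upstream was found on CD only, with low heights of 4 and 9.5. The loci 15413 bases upstream (27.5 and 24.2 on LD, 21.2 and 23.5 on CD) and in a coding exon (20.5 and 17 on LD, 12.8 and 16.5 on CD) were slightly higher on LD. Both overlapped with scaled heights. No Hnf4a, C/EBPa or H3K27ac locus was called within 20 kb of Cyp4a12b, where 44.6% of the 50-base words of the gene body and 36.7% of those of the promoter occur elsewhere in the genome.

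The other separated Hnf4a loci lay by Cyp4v3 and Cyp4f15. In introns of Klkb1 past the end of Cyp4v3, 1 locus was found on LD only (10.2 and 11), 1 was higher on LD (28.2 and 27.8 against 0 and 16) and 1 lower (33 and 34.8 against 35.8 and 56). By Cyp4f15, a locus in an intron of Cyp4f40 was found on LD only (8.75 and 6.25). The loci nearest the other starts overlapped between the diets. That of Cyp4a14, 1516 bases upstream, had 34.8 and 24.5 on LD and 17.5 and 33 on CD. Those at the starts of Cyp4a31 (0 and 13.5 against 7.5 and 0), Cyp4a32 (24 and 19 against 14 and 42) and Cyp4f15 (0 and 31.8 against 26.8 and 59) were called in part of the samples or spread widely on CD. With scaled heights the locus of Cyp4f15 was lower in both LD samples, and the other 3 still overlapped.

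C/EBPa, a leucine zipper factor of mature hepatocytes, had 21 loci near the members. Of these, 3 were found on LD only and 1 on CD only, near the share of all C/EBPa loci found on 1 diet only (20.5%). Heights were higher in both LD samples at 4 loci, lower at 3 and overlapping at 14, so 7 of 21 separated, beside 52.9% of all loci (23.3% higher, 29.6% lower). With scaled heights 9 separated, 6 higher and 3 lower, beside 57.4% of all loci (33.9% higher, 23.6% lower), so the balance over all loci turned with the scaling. The largest height difference among them was 400 bases before the start of Cyp4v3, with heights of 33 and 29 on LD against 82 and 54 on CD. Another locus lower on LD lay 1117 bases inside Cyp4f15, at 11.5 and 12 on LD and 37 and 20.5 on CD. The third lower locus, in an intron of Klkb1 past the end of Cyp4v3, was found on CD only (31 and 21.5). Those higher on LD were inside Cyp4a10, 1062 bases from its start (40.5 and 43 against 40 and 19), an intronic locus of Cyp4a31 found on LD only (18.5 and 31), a locus upstream of Cyp4a31 (5.5 and 9, LD only) and one in Klkb1 (9.5 and 10.5, LD only). The locus at the start of Cyp4f14 had 13.5 and 10 on LD and 12.5 and 11 on CD, and did not separate. Neither did the nearest loci of Cyp4a31 (23.5 and 37 against 36.5 and 26.5) and Cyp4a32 (9 and 0 against 11.5 and 0), nor the only locus of Cyp4a12a, in a coding exon (0 and 9.5 against 10 and 0).

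The Hnf4a and C/EBPa loci before the start of Cyp4v3 share most of their bases, and the Hnf4a locus is shown because the 2 factors differed there, the height of C/EBPa being lower on LD and that of Hnf4a overlapping. It lies between genes at mm9 chr8:46418883-46419106 and is given on the plus strand from the NCBIM37 genome. Capitals mark, in order, the C/EBP words TTTTGGAA and TTGCGCAA, the half-site AGGTCA on the opposite strand (written TGACCT) and a last C/EBP word.
Cyp4v3 upstream locus: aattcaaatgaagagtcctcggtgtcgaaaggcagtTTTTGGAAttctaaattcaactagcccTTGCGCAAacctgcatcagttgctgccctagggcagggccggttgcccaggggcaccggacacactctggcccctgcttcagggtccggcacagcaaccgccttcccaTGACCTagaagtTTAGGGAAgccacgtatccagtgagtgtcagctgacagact
The word TTGCNNAA was in 20.5% of all Hnf4a loci and in 45.2% of all C/EBPa loci, and AGGTCA in 34.5% and 30.1%.

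Promoter capture Hi-C gave a CHiCAGO score for each pair of fragments with a score of at least 5. Per the paper, this score reflects how robust and confident an interaction call is. It is not a contact level. There was 1 list per diet, made from pooled replicates, so the lists give no spread and no test was made here. The members had 45 interactions, of which 22 were listed on both diets, 9 on LD only and 14 on CD only. Thus 51.1% were listed on 1 diet only, beside 46.2% of all interactions. The fragments that hold the starts of Cyp4a10, Cyp4a12a, Cyp4a12b and Cyp4a31 were in no listed interaction. The lists do not show whether capture probes targeted these fragments, so absent contact and absent capture cannot be told apart. The fragment with the start of Cyp4a32 was listed without a probe.

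The Cyp4a14 promoter had 29 of the 45, 17 on LD and 26 on CD. Of these, 14 were on both diets, 3 on LD only and 12 on CD only. Of the 14 shared, 12 had a lower score on LD, 1 a higher and 1 an equal score, beside 52.4% of all shared interactions with a lower and 47.4% with a higher score on LD. The highest score was that of a fragment 219 kb away that starts no gene, at 15.55 on LD and 18.2 on CD. The Cyp4a14 promoter reached the start of Cyp4a32 on CD only (score 5.66) and the promoter of Cyp4b1, another Cyp4 gene, on CD only (score 6.16). The split moved with the settings. With a score minimum of 7, 5 interactions of the members were on 1 diet and 12 on both, and with fragments within 5000 bases taken as the same, 9 and 36.

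**Figure D5:**
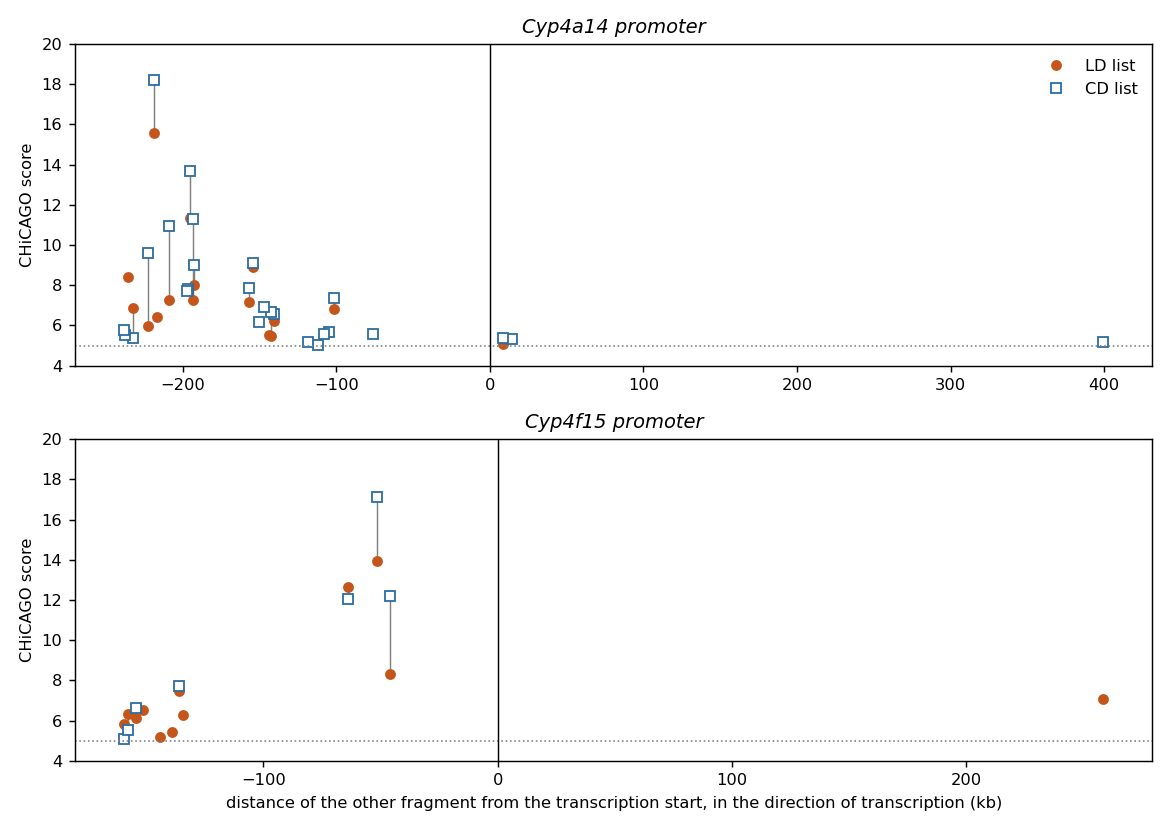
CHiCAGO score of the interactions of the Cyp4a14 and Cyp4f15 promoters by distance in kb from the transcription start, with LD circles and CD squares joined where the same fragment pair was listed on both diets and the minimum of 5 dotted. For Cyp4a14, 12 of the 14 joined pairs have the lower score on LD.

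The Cyp4f15 promoter had 12 interactions on LD and 7 on CD, and all 7 were shared. It reached the promoter of Cyp4f37 on both diets (12.64 on LD, 12.07 on CD) and that of Cyp4f13 on LD only (7.09). The Cyp4f14 promoter reached Cyp4f37, 295 kb away, on both diets (6.81 on LD, 5.67 on CD) and March2 on LD only (5.82). The Cyp4v3 promoter had 2 interactions with scores near the minimum, both on CD only (5.15 and 5.76). In the domains called from Hi-C, each member had the same domain borders on LD and CD. Cyp4a12a lay in chr4:114660001-115015000 and the other 5 Cyp4a genes in the next domain. Cyp4f15 and Cyp4f14 were likewise in neighbouring domains of chromosome 17.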

How the data were processed

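Per the paper's methods and the labels, the authors aligned RNA-seq reads to mm9 with STAR 2.5 and counted read pairs per RefSeq gene with featureCounts 1.5.0-p1. The deposited counts were used unchanged, and the deposited TPM values were used for levels between genes. ChIP-seq reads were aligned with Bowtie 0.12.8, kept where unique and deduplicated with Picard 1.110. The authors called H3K27ac peaks per sample with SICER, whose files hold intervals only, and factor peaks per sample with HOMER, whose signal is a normalized tag count. The deposited interaction score (CHiCAGO) and the domains come from replicates pooled per diet. The authors' fold change and p-value columns were not used. The stated featureCounts call was strand-specific and held no option to count reads that map to several places or lie in several genes.

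Counts were tested for LD against CD in edgeR 4.0.16 (R 4.3.3) with TMM scaling, filterByExpr, a robust quasi-likelihood fit and Benjamini-Hochberg adjustment, and the code was tested on simulated data. Loci are merged peaks with a peak in at least 2 samples, within 20 kb of a gene body, and coordinates are mm9, counted from 1. Promoters run from 250 bases before to 50 after the start and were read from the NCBIM37 genome (mm9), as the RefSeq promoter table is of another build. Motifs were searched on both strands. DESeq2 1.42.0 and limma 3.58.1, other filters and scalings, other windows and score minimums, and fits without each replicate were alternatives. All 9 members are named, from each list at most the 3 called genes of largest absolute log2 fold change, the 5 genes of most similar pattern for 4 members, and loci at or nearest a start, found on 1 diet or not overlapping. The members and lists were chosen with earlier results of these data known. The 1 TPM column whose replicate number matches no label was used as a CD sample without a number. RNA depth was 31707963 to 39012699 counts, and ChIP-seq depth is unknown from the peak files.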

Additional observations from a re-analysis of the deposited data

Results flagged for a closer look

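Cyp4a14 in CD replicate 3 measured 371 CPM (370.93), far above the next CD sample at 149 CPM, a gap of 0.714 of the range of the CD samples. It was the only 1 of 28 groups of samples looked at in this way to stand out, and chance alone picks about 1 in 20 such groups. The explanation was not tested.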

How the results depend on the processing

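Of 453 values recomputed under other settings, 404 were rated the same. For a fold change this means the same direction and side of the threshold. For a count or a coverage difference it means close to the main value or, for scaled coverage, of the same sign. Genes of a list could thus cross the threshold within a count rated the same. Cyp4a12a, Cyp4a12b and Cyp4f14 stayed lower on LD and called in all 20 alternatives, with log2 fold changes of -1.45 to -1.11, -4.10 to -3.30 and -1.54 to -1.25. The number of members called higher was 1 in place of 0 by limma on log2(TPM + 1), by limma on log2(TPM + 0.1) and in the edgeR fit that is not robust (chosen after seeing the data), and 0 to 1 with a replicate left out. The gene was Cyp4a14 each time, and its adjusted p ran from 0.00393 to 0.227 over the alternatives. The fold change of Cyp4a32 was -0.055 to 0.204 with a replicate left out, and reversed to -0.031, -0.031 and -0.055 without LD replicate 1, CD replicate 1 and CD replicate 2. With the replicate number as a block, 3 members were called lower and 0 higher, that of Cyp4a14 was 1.54 on the log2 scale (adjusted p = 0.0549 by edgeR), and 3173 genes were called in place of 3357. The numbers did not pair the samples, since their deviations correlated at -0.078 to 0.191 and 1 of 5 samples matched its own number best. A test against a fold change of 1.2 called 1378 genes. Members whose H3K27ac coverage did not overlap were 1 with windows of 10 kb or of 50 kb, 3 with coverage divided by the share of the genome covered (Cyp4a31 lost, Cyp4a12a and Cyp4v3 gained as lower), and 2 to 5 with a replicate left out. H3K27ac loci of 1 diet were 5 with 2 samples required and 1 with near peaks merged. Separated Hnf4a loci were 4 (1 lower on LD) in the upper part of each sample by height, 17 (10 lower) with scaled heights, and 17 to 25 (2 to 16 lower) with a replicate left out, where 1 sample stands for a diet. Separated C/EBPa loci were 11 to 15 (3 to 11 lower) with a replicate left out. Interactions on 1 diet and on both were 5 and 12 at a score of at least 7, and 9 and 36 with a tolerance of 5000 bases. Except where fewer samples or peaks entered, the cause was not tested. Depth limits Cyp4a31 most, at 370 counts over the 5 LD and 264 over the 5 CD samples, and next Cyp4a12b on LD, at 498.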
